A study of Mus musculus with 4 samples.

Results

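VGLUT3-gated nuclei are mouse retinal nuclei that carried the vesicular glutamate transporter gene Slc17a8 together with an amacrine gene, and 117 of 32326 nuclear barcodes met the rule. The rule kept a barcode with at most 5% mitochondrial transcripts, at least 2 Slc17a8 UMIs (unique molecular identifiers, counted transcripts) and at least 1 UMI over Pax6, Tfap2a, Tfap2b, Tfap2c, Slc6a9 and Slc32a1. It dropped barcodes with more than 2 UMIs of Gad1 plus Gad2, more than 1 of Slc17a6, any of Chat or Slc5a7, more than 1 of Trpm1 plus Grm6, or more than 2 of Slc1a3. The members came from 4 droplet single-nucleus RNA libraries of left-eye retina, each from its own donor mouse. The 5-month libraries gave 30 and 41 members, and the 2.5-month libraries gave 23 and 23. The labels call the 2.5-month mice wild type and state no genotype for the 5-month mice; no strain or treatment is given for either age. Because measured UMIs chose the members, the levels of the gate genes are given below as a description and were not tested.

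Slc17a8 encodes VGLUT3, a transporter that fills synaptic vesicles with glutamate. In the mouse retina it marks a type of amacrine cell that releases glutamate onto some ganglion cells and also glycine onto others, and that responds to small moving objects. Amacrine cells as a whole are inhibitory interneurons of the inner retina, mostly glycinergic or GABAergic, and the transcription factors of the Tfap2 family and Pax6 are general marks of them.

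The libraries held 28042269 and 36320257 UMIs at 5 months and 19608067 and 28723257 UMIs at 2.5 months. Median UMIs per member were 3099.5 and 3589 at 5 months and 4198 and 6290 at 2.5 months, and summed UMIs of the members were 107632 and 162365 at 5 months and 97169 and 137574 at 2.5 months. Members were set against 3 gated amacrine classes of the same libraries, each required to have no Slc17a8 UMI: 1501 glycinergic nuclei (at least 2 Slc6a9 UMIs), 1270 GABAergic nuclei (at least 3 Gad1 plus Gad2 UMIs, no Slc6a9) and 263 starburst nuclei (at least 2 Chat plus Slc5a7 UMIs). Between libraries, 0.0808% to 0.337% of the barcodes of the smaller library were shared, and no shared barcode was a member. Levels are UMIs per 1000000 UMIs (CPM) of the summed members of a library, and all intervals and floors cover counting error only. The 5-month files name Cell Ranger 4.0.0 and the 2.5-month files name Cell Ranger 7.1.0, and the effect of that difference cannot be told apart from that of age.

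The rule requires Slc17a8, counts Slc6a9 and Slc32a1 toward entry and caps Gad1, Gad2 and Slc17a6, so the levels of these genes follow from it. Slc17a8 (chr10:89574020-89621253, minus strand, GRCm38) stood at 1310 and 1324 CPM in 5-month members and at 1523 and 1556 CPM in 2.5-month members. Tfap2b, the second marker of the class, stood at 734 and 659 CPM in 5-month members and at 463 and 843 CPM in 2.5-month members. Tfap2a ran from 186 to 291 CPM over the 4 libraries, Pax6 from 390 to 463 CPM, and Tfap2c had UMIs in 1 library. Slc6a9, the plasma membrane glycine transporter GlyT1, stood at 149 and 234 CPM in 5-month members and at 257 and 233 CPM in 2.5-month members, against 890 and 781 CPM at 5 months and 745 and 631 CPM at 2.5 months in the glycinergic nuclei that were gated on it. Slc32a1, which loads glycine and GABA into vesicles, ran from 74.3 to 134 CPM in members. Gad1, the GABA synthesis enzyme, ran from 6.16 to 43.6 CPM, and no Chat or Slc5a7 UMI was present by the rule.

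Slc6a5, the glycine transporter GlyT2, was no gate gene and could be tested. Its levels in members were 112 and 80.1 CPM at 5 months and 41.2 and 94.5 CPM at 2.5 months, against 105 and 85.5 CPM at 5 months and 64.9 and 104 CPM at 2.5 months in glycinergic nuclei. The ranges overlapped, and edgeR's quasi-likelihood test gave a log2 fold change of -0.10 ± 0.25 (SE, adjusted p = 0.884). Against GABAergic nuclei, with 74.9 and 81.2 CPM at 5 months and 37.9 and 54.8 CPM at 2.5 months, the log2 fold change was 0.32 ± 0.26 (adjusted p = 0.517), so Slc6a5 was not called against either class. Against starburst nuclei, where Slc6a5 lay between 1.62 and 8.58 CPM, members were higher by 4.01 ± 0.47 on the log2 scale (adjusted p = 4.25e-07).

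The members were not uniform. Tfap2a, Tfap2b and Tfap2c count toward entry, so the share of members with such a UMI follows in part from the rule. Of the 117 members, 86 had a UMI of Tfap2a, Tfap2b or Tfap2c (19 and 28 at 5 months, 18 and 21 at 2.5 months) and 31 had none (11 and 13 at 5 months, 5 and 2 at 2.5 months). Members with a Tfap2 UMI had a median of 1 UMI over the Müller glia genes Rlbp1, Glul, Apoe and Aqp4, and 8 of 86 had 5 or more. Members without one had a median of 15, and 28 of 31 had 5 or more. All but 1 of these 31 had a Pax6 UMI, so Pax6 did not set them apart from the other members. The summed level of the 5 Müller genes, with Slc1a3, was 596 CPM in members with a Tfap2 UMI, where Aqp4 was at 0, and 5453 CPM in members without one. Gated Müller nuclei (at least 3 UMIs of Slc1a3 and of Rlbp1 plus Glul, with no Tfap2 UMI) stood at 6879 CPM and glycinergic nuclei at 736 CPM. The name VGLUT3-gated is therefore used for the set chosen by the rule.

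The members without a Tfap2 UMI sat at the lower edge of the Slc17a8 threshold. Of 31 members with 2 Slc17a8 UMIs, 25 lacked a Tfap2 UMI, as did 5 of 11 with 3 UMIs and 1 of 32 with 4 to 6 UMIs. None of the 18 members with 7 to 9 UMIs or of the 25 with 10 to 21 UMIs lacked one. Just outside the threshold, 182 nuclei with 1 Slc17a8 UMI that met the rest of the rule had a summed Müller level of 4720 CPM. A Slc17a8 UMI was found in 206 of 1789 gated Müller nuclei (11.5%, median 3424 UMIs per nucleus), in 8 of 1278 GABAergic nuclei gated without regard to Slc17a8 (0.626%, median 5825 UMIs) and in 20 of 3594 rod nuclei (0.556%, median 1251 UMIs). Glycinergic nuclei gated without regard to Slc17a8 had one in 40 of 1541 (2.60%, median 3865 UMIs). Of those 40, 31 had 2 or more and are members by the rule, a different set from the 31 without a Tfap2 UMI. Only the Slc17a8 condition kept them out of the glycinergic comparator. Raising the threshold to 3 Slc17a8 UMIs leaves 86 members (20 and 28 at 5 months, 17 and 21 at 2.5 months). Counts of list genes that change at that threshold are given below with both values.

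**Figure D1:**
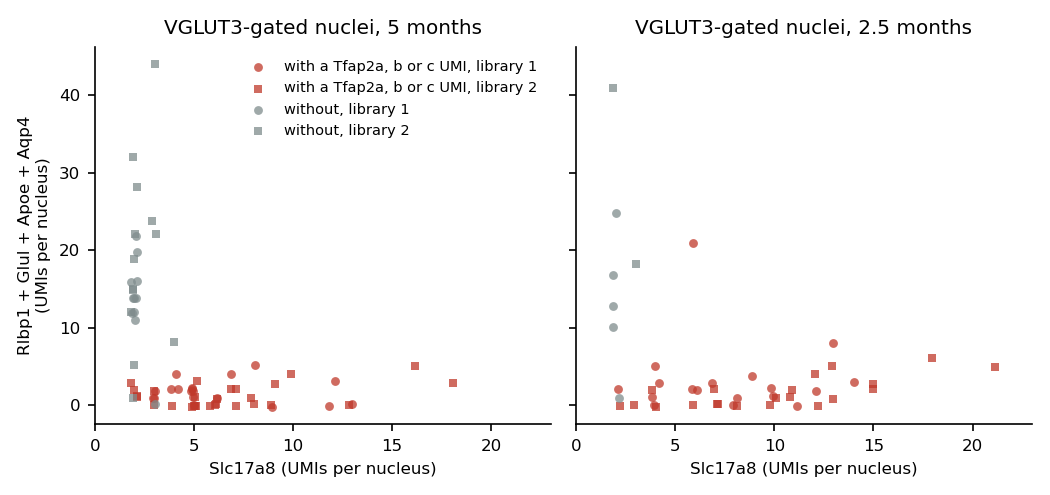
Slc17a8 UMIs (x axis) against summed UMIs of Rlbp1, Glul, Apoe and Aqp4 (y axis) in each of the 117 VGLUT3-gated nuclei, 5-month libraries on the left and 2.5-month libraries on the right, with small jitter. Red points have a Tfap2a, Tfap2b or Tfap2c UMI and grey points have none; grey points gather at 2 or 3 Slc17a8 UMIs and mostly at 5 or more Müller UMIs.

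The Slc1a3 limit of the rule also left out nuclei that resemble the Tfap2 members. Of 244 nuclei with at least 2 Slc17a8 UMIs, 80 failed on Slc1a3 alone. Of those, 37 had a Tfap2 UMI (8 and 15 at 5 months, 0 and 14 at 2.5 months), with a median of 2 Müller UMIs, and 35 of the 37 had 5 or more UMIs of Nxph1, a gene described below. The counts of members below are therefore counts by the rule and not a census of the cell type.

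Members differed from every comparator class in over 1000 genes. Each comparison used summed UMIs per library and class in 1 edgeR fit with the library as a block, 9819 genes were tested, and a gene is called at an adjusted p under 0.05. Against glycinergic nuclei 1125 genes were called (11.5%), of which 599 were higher (6.1%) and 526 lower (5.36%). Against GABAergic nuclei 1583 were called (16.1%), 789 of them higher (8.04%) and 794 lower (8.09%). Against starburst nuclei 1716 were called (17.5%), 898 of them higher (9.15%) and 818 lower (8.33%). Of the 9819 genes, 268 were called higher and 105 lower against all 3 classes, and the 3 comparisons share the members' sums. With the threshold at 3 Slc17a8 UMIs, 946 of the 1125 calls against glycinergic nuclei were kept. So were 1139 of 1583 against GABAergic nuclei and 1355 of 1716 against starburst nuclei. The calls against all 3 classes were not counted at that threshold. The median log2 fold change over all genes was -0.027, -0.031 and -0.019 in that order of classes. The log2 fold changes below are members over the named class, with the standard error of the fit. Counts of called genes by list are to be read beside these shares of all genes, and no list was tested against them.

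Nxph1 (chr6:8948431-9249032, plus strand) encodes neurexophilin 1, a secreted ligand of alpha-neurexins. It stood at 3382 and 2291 CPM in 5-month members and at 5660 and 5561 CPM in 2.5-month members. Glycinergic nuclei had 10.9 and 9.34 CPM at 5 months and 7.73 and 5.12 CPM at 2.5 months. The groups were far apart in all 4 libraries (4223 ± 1663 CPM in members and 8.27 ± 2.46 CPM in glycinergic nuclei, SD, n = 4 each), with a log2 fold change of 8.95 ± 0.37 (adjusted p = 3.72e-14). The log2 fold change was 7.93 ± 0.34 against GABAergic nuclei (adjusted p = 5.4e-14) and 8.15 ± 0.40 against starburst nuclei (adjusted p = 3.2e-13). A Nxph1 UMI was present in 74.4% of members (median 3818 UMIs per nucleus), in 2.33% of glycinergic nuclei (median 3853 UMIs) and in 4.25% of GABAergic nuclei (median 5814 UMIs). The split of the members followed the Tfap2 split: 81 of 86 members with a Tfap2 UMI had at least 5 Nxph1 UMIs, and 1 of 31 without one did.

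Plpp4 (chr7:129257031-129391412, plus strand), a phospholipid phosphatase gene, stood at 353 and 339 CPM in 5-month members and at 401 and 516 CPM in 2.5-month members, against at most 2.79 CPM in any glycinergic sum and 2.24 CPM in any GABAergic sum. Its log2 fold change was 7.83 ± 0.28 against glycinergic nuclei (adjusted p = 3.85e-15) and 7.83 ± 0.27 against GABAergic nuclei (adjusted p = 1.07e-15). All 203 Plpp4 UMIs of the members came from nuclei with a Tfap2 UMI, where the pooled level was 504 CPM.

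Col24a1, Bmp5, Slc16a14, Ptprm, Lhx2, Ccdc88c, Tmprss11d and Adam12 were also among the genes with the highest fold changes over glycinergic nuclei. Col24a1, a fibrillar collagen, averaged 185 ± 21.6 CPM in members and 2.44 ± 1.70 CPM in glycinergic nuclei. Bmp5, a ligand of the bone morphogenetic protein family, averaged 107 ± 17.4 CPM in members and 3.14 ± 1.93 CPM in glycinergic nuclei. Slc16a14, of the monocarboxylate transporter family, averaged 184 ± 56.9 CPM in members and 4.15 ± 0.867 CPM in glycinergic nuclei. These are means ± SD over 4 libraries, with log2 fold changes of 6.39, 5.22 and 5.40. Ptprm, a receptor tyrosine phosphatase, averaged 919 ± 88.5 CPM in members and 62.6 ± 29.9 CPM in glycinergic nuclei. Lhx2, a LIM homeobox factor, Ccdc88c, Tmprss11d and the metalloprotease gene Adam12 were higher with log2 fold changes of 4.31, 4.10, 4.09 and 3.90. Lhx2 was found at 184 CPM in members with a Tfap2 UMI, 108 CPM in members without one and 126 CPM in Müller nuclei.

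Genes low in members against glycinergic nuclei included signalling ligands, receptors and adhesion genes. Nrg1, which encodes the growth factor neuregulin 1, stood at 83.6 and 604 CPM in 5-month members and at 134 and 58.1 CPM in 2.5-month members. Glycinergic nuclei had 5441 and 4243 CPM at 5 months and 4356 and 7068 CPM at 2.5 months, so the ranges were well apart (log2 fold change -4.48 ± 0.38, adjusted p = 5.91e-09). Leaving out each library in turn gave log2 values between -5.96 and -3.98. Gfra1, the co-receptor of the neurotrophic factor GDNF, had 2 UMIs over all members and 844 over glycinergic nuclei, a ratio of 33.8 in favour of glycinergic nuclei (95% counting interval 9.33 to 280). Cntnap5b, of the contactin-associated family, had 2 UMIs in members and 702 in glycinergic nuclei, a ratio of 28.1 (7.76 to 233). Il1rapl2, a synaptic adhesion gene, had 3 and 749 UMIs, a ratio of 20 (6.82 to 97.2). Cdh12, a cadherin, averaged 39.6 ± 36.9 CPM in members and 786 ± 132 CPM in glycinergic nuclei. Robo1, a receptor of Slit guidance cues, averaged 24.5 ± 8.42 CPM in members and 324 ± 36.3 CPM in glycinergic nuclei. Tbc1d4, Kcnd3, Plcxd3 and Pcsk6 were lower by 3.79, 3.71, 3.69 and 3.68 on the log2 scale.

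Ankfn1 and Rpe65 were also among the lowest genes. Their values changed when nuclei with cone RNA, or with no Pax6 or Tfap2 UMI, were left out. The 6 cone genes summed to 1096 and 745 CPM in 5-month members and to 134 and 131 CPM in 2.5-month members, against 1229 to 2457 CPM in glycinergic nuclei, and 142 of the 1501 glycinergic nuclei held 10 or more cone UMIs. All 6 were called lower in members. A setting chosen after seeing the data dropped nuclei with 10 or more cone UMIs or with no Pax6 or Tfap2 UMI. Applied to every class, it left 1169 of the 1501 glycinergic nuclei. Of the 1501, 287 had no Pax6 or Tfap2 UMI. None of the 6 cone genes was called there, a result largely fixed in advance by the limit on their own UMIs. The part of each limit in the changes below was not tested. In that setting Rpe65, a visual cycle enzyme gene, was lower by 2.68 on the log2 scale, against 4.37 with all nuclei, and Ankfn1 was no longer called (adjusted p = 0.11, against 0.0149 with all nuclei). The other genes named as higher or lower than glycinergic nuclei by the naming rule were called in the same direction in both settings.

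**Figure D2:**
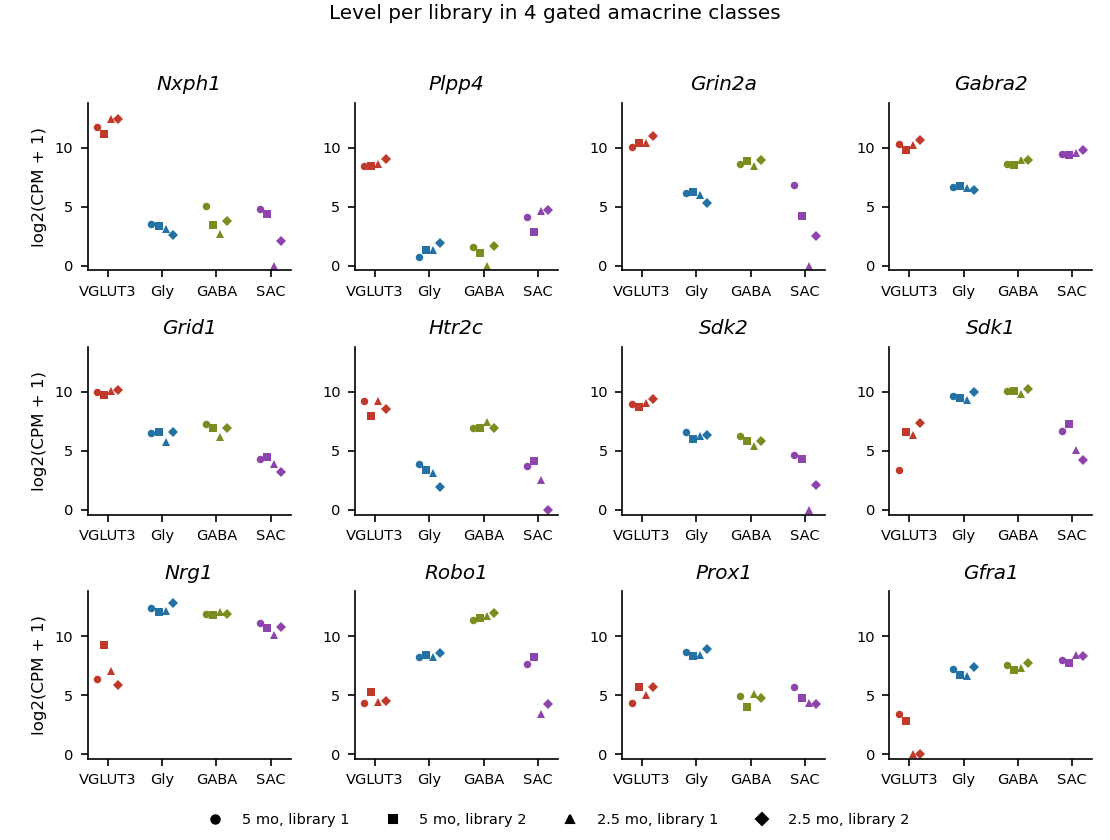
Level of 12 genes as log2(CPM + 1) in VGLUT3-gated, glycinergic (Gly), GABAergic (GABA) and starburst (SAC) nuclei, 1 point per library, with the shape giving age and library. Nxph1, Plpp4, Grin2a, Grid1 and Sdk2 are highest in VGLUT3-gated nuclei, and Nrg1, Robo1 and Gfra1 are lower there than in the glycinergic and GABAergic nuclei of every library.

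All 4 genes that mark the AII amacrine cell, the glycinergic cell of the rod pathway, were lower in members than in glycinergic nuclei. Prox1, a homeobox factor, stood at 18.6 and 49.3 CPM in 5-month members and at 30.9 and 50.9 CPM in 2.5-month members, against 401 and 316 CPM at 5 months and 329 and 475 CPM at 2.5 months in glycinergic nuclei (log2 fold change -3.22 ± 0.29, adjusted p = 1.91e-08). Dab1, an adaptor of reelin signalling, averaged 359.5 ± 99.6 CPM in members and 3640 ± 857 CPM in glycinergic nuclei (log2 fold change -3.28 ± 0.23, adjusted p = 2.2e-10). Gjd2, which encodes the neuronal gap junction protein connexin 36, had 2 UMIs in members and 370 in glycinergic nuclei, a ratio of 14.8 (4.07 to 123). Nfia was lower by 1.33 on the log2 scale, and by 2.85 at the threshold of 3 Slc17a8 UMIs; its pooled level was 44.7 CPM in members with a Tfap2 UMI and 1108 CPM in members without one. The glycinergic gate holds AII nuclei among other types, and their share of it was not tested. Against GABAergic nuclei none of the 4 genes was called. Against starburst nuclei Dab1 and Nfia were called higher, but not at 3 Slc17a8 UMIs. The 4 genes summed to 377 CPM in members with a Tfap2 UMI, 1873 CPM in members without one and 2129 CPM in Müller nuclei.

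Genes of synaptic adhesion and lamination were called often in both directions. Of 37 tested against glycinergic nuclei, 13 were higher and 14 lower (10 and 13 at 3 Slc17a8 UMIs), with a median log2 fold change of -0.245. Sdk2 (chr11:113776374-114067046, minus strand), a homophilic adhesion protein of the sidekick pair known in mouse to join VGLUT3 amacrine cells to a ganglion cell type, stood at 511 and 413 CPM in 5-month members and at 545 and 662 CPM in 2.5-month members. Glycinergic nuclei had 97.1 and 64.9 CPM at 5 months and 74.2 and 81.5 CPM at 2.5 months. The ranges did not overlap, and the log2 fold change was 2.79 ± 0.19 against glycinergic nuclei (adjusted p = 1.53e-10), 3.10 ± 0.19 against GABAergic nuclei (adjusted p = 2.66e-11) and 5.30 ± 0.30 against starburst nuclei (adjusted p = 3.52e-12). Its paralogue Sdk1 (chr5:141241490-142215586, plus strand) ran the other way. It stood at 9.29 and 98.5 CPM in 5-month members and at 82.3 and 167 CPM in 2.5-month members, against 824 and 695 CPM at 5 months and 634 and 1011 CPM at 2.5 months in glycinergic nuclei (log2 fold change -3.06 ± 0.40, adjusted p = 5.47e-06). Sdk1 was lower than in GABAergic nuclei as well (-3.58 ± 0.39, adjusted p = 2.6e-07). Dscam, an adhesion gene of the same immunoglobulin superfamily, was lower than in glycinergic nuclei by 2.64 on the log2 scale (adjusted p = 3.66e-07), and Cntn5, a contactin, was higher by 2.26 (adjusted p = 1.95e-10).

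Of 24 cadherins and protocadherins, 6 were higher and 8 lower than in glycinergic nuclei (6 and 9 at 3 Slc17a8 UMIs, median log2 fold change -0.168). Cdh4 averaged 422 ± 42.6 CPM in members and 86.5 ± 5.30 CPM in glycinergic nuclei. Cdh2 was called higher (log2 fold change 0.94, adjusted p = 0.00033), and was not called at 3 Slc17a8 UMIs (0.11, adjusted p = 0.84); its pooled level was 174 CPM in members with a Tfap2 UMI, 1579 CPM in members without one and 1532 CPM in Müller nuclei. Among 31 axon guidance genes 7 were higher and 11 lower (3 and 12 at 3 Slc17a8 UMIs, median -0.167). Unc5c, a netrin receptor, averaged 1378 ± 268 CPM in members and 215 ± 92.7 CPM in glycinergic nuclei, with 1249 CPM in members with a Tfap2 UMI and 1658 CPM in members without one. Slit1, a secreted guidance cue, averaged 69.3 ± 15.6 CPM in members and 10.0 ± 5.20 CPM in glycinergic nuclei. Sema3e was called higher (adjusted p = 0.0433), but not at 3 Slc17a8 UMIs (log2 fold change 0.01), and leaving out 1 library moved its adjusted p as high as 0.38.

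The receptor genes Grin2a, Grid1 and Gabra2 were called higher in members than in each of the 3 classes. Grin2a (chr16:9567898-9995560, minus strand), the GluN2A subunit of the NMDA glutamate receptor, stood at 1068 and 1367 CPM in 5-month members and at 1307 and 2006 CPM in 2.5-month members. Glycinergic nuclei had 68.6 and 74.7 CPM at 5 months and 63.4 and 38.7 CPM at 2.5 months. Every member sum lay above every glycinergic sum (log2 fold change 4.63 ± 0.35, adjusted p = 7.52e-10), and members were also higher than GABAergic nuclei (1.71 ± 0.30, adjusted p = 0.00014) and starburst nuclei (5.29 ± 0.43, adjusted p = 1.24e-09). Grin2a was the 1 gene called higher among 6 NMDA receptor genes against glycinergic nuclei, and Grin3a, with 0 UMIs in members and 95 in glycinergic nuclei, was the 1 called lower; leaving out 1 library moved its adjusted p as high as 0.086.

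Grid1, the glutamate receptor relative GluD1 that acts in synaptic adhesion, averaged 1028 ± 124 CPM in members and 84.6 ± 20.4 CPM in glycinergic nuclei. Its log2 fold change was 3.61 ± 0.17 against glycinergic nuclei (adjusted p = 2.04e-13), 3.05 against GABAergic nuclei and 5.96 against starburst nuclei. Among 11 AMPA, kainate and delta receptor genes 3 were higher than in glycinergic nuclei (Gria3, Grik4 and Grid1) and 3 lower (3 and 4 at 3 Slc17a8 UMIs). Gria3, an AMPA receptor subunit, averaged 1270 ± 238 CPM in members and 734 ± 99.4 CPM in glycinergic nuclei. Of 7 metabotropic glutamate receptors, 2 were higher, among them Grm8 with a log2 fold change of 0.83, and Grm5 was lower by 1.69.

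Gabra2 (chr5:70957597-71095849, minus strand), the alpha-2 subunit of the GABA-A receptor, stood at 1254 and 868 CPM in 5-month members and at 1173 and 1643 CPM in 2.5-month members, against 101 and 106 CPM at 5 months and 95.8 and 82.4 CPM at 2.5 months in glycinergic nuclei. The log2 fold change was 3.68 ± 0.16 (adjusted p = 9.39e-14) against glycinergic nuclei and 1.43 ± 0.14 (adjusted p = 6.9e-08) against GABAergic nuclei. Against starburst nuclei it was 0.54 ± 0.15 (adjusted p = 0.0094), and leaving out 1 library moved that adjusted p as high as 0.063. Of 19 GABA and glycine receptor genes, 4 were higher than in glycinergic nuclei and 1 was lower, with a median of -0.148. Glra3, a glycine receptor subunit, averaged 469 ± 124 CPM in members and 248 ± 26.6 CPM in glycinergic nuclei. Gphn, the gephyrin scaffold that anchors both receptor kinds, averaged 3236 ± 251 CPM in members and 1281 ± 196 CPM in glycinergic nuclei. Gabrg3, the gamma-3 subunit, was the gene called lower (log2 fold change -1.33 ± 0.22, adjusted p = 0.000109).

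Serotonin and dopamine receptor genes were split. Htr2c, the serotonin 2C receptor, stood at 585 and 246 CPM in 5-month members and at 597 and 371 CPM in 2.5-month members, against 13.6 and 9.34 CPM at 5 months and 7.73 and 2.79 CPM at 2.5 months in glycinergic nuclei (log2 fold change 5.69 ± 0.31, adjusted p = 6.35e-12). It was also higher than in GABAergic nuclei by 1.60 ± 0.22 (adjusted p = 7.13e-06) and than in starburst nuclei by 5.48 ± 0.40 (adjusted p = 1.83e-10). Htr1b, the serotonin 1B receptor, averaged 28.9 ± 7.64 CPM in members and 4.20 ± 1.12 CPM in glycinergic nuclei. Htr2a, the serotonin 2A receptor, had no UMI in members and 350 in glycinergic nuclei, which is at least 9.35-fold lower in members against a floor of 3 UMIs over the group. Drd2, a dopamine receptor, had 2 UMIs in members and 496 in glycinergic nuclei, a ratio of 19.9 (5.47 to 165). Over 14 neuromodulator receptor genes, 2 were higher and 3 lower.

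Potassium channel genes were more often lower than higher: 9 of 28 were lower than in glycinergic nuclei and 3 were higher (10 and 4 at 3 Slc17a8 UMIs), with a median of -0.590. Kcnd3, a subunit of A-type channels, averaged 22.4 ± 30.7 CPM in members and 298 ± 50.1 CPM in glycinergic nuclei. Kcnma1, the large-conductance calcium-activated channel, averaged 419 ± 144 CPM in members and 1706 ± 492 CPM in glycinergic nuclei. Kcnb2 was lower by 2.90 on the log2 scale, and by 5.18 at 3 Slc17a8 UMIs; the second 2.5-month library held 327 CPM and no other held more than 46.5 CPM. Kcnh5, of the ether-a-go-go family, was higher (511 ± 107 CPM in members and 50.8 ± 16.8 CPM in glycinergic nuclei, log2 fold change 3.32), and so was Kcna2 (1.17). Of 15 calcium channel genes 4 were higher and 2 lower (4 and 3 at 3 Slc17a8 UMIs). Cacna1e, the R-type channel, was among the higher ones, at 147 ± 62.4 CPM in members and 32.2 ± 7.93 CPM in glycinergic nuclei.

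Of 30 release machinery genes 3 were higher than in glycinergic nuclei and 4 lower (3 and 5 at 3 Slc17a8 UMIs). Unc13c, a vesicle priming factor, averaged 936 ± 129 CPM in members and 186 ± 52.4 CPM in glycinergic nuclei, with 795 CPM in members with a Tfap2 UMI and 1442 CPM in members without one. Cplx3, a complexin, averaged 71.1 ± 27.5 CPM in members and 191 ± 42.4 CPM in glycinergic nuclei (log2 fold change -1.37 ± 0.21, adjusted p = 4.82e-05). None of 10 neuropeptide genes, 9 immediate early genes or 23 ribosomal protein genes was called between members and glycinergic nuclei. Over all genes tested 11.5% were called, and at that share lists this short would hold few calls.

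Of 29 amacrine and ganglion transcription factor genes 4 were higher than in glycinergic nuclei and 9 lower (4 and 11 at 3 Slc17a8 UMIs, median -0.224). Lhx9, a LIM homeobox factor, averaged 48.0 ± 13.6 CPM in members and 3.08 ± 1.49 CPM in glycinergic nuclei (log2 fold change 3.87 ± 0.43, adjusted p = 4.73e-07). Rorb, an orphan nuclear receptor, was higher by 0.69 on the log2 scale (adjusted p = 0.000143). Ebf1 and Ebf3, factors of the early B-cell family present in some glycinergic types, were lower by 3.42 and 3.18, and by 5.41 and 5.76 at 3 Slc17a8 UMIs. Of the 4 Müller genes tested, Glul, Apoe and Aqp4 were called higher than in glycinergic nuclei; at 3 Slc17a8 UMIs none of the 3 was (Aqp4 was below the count filter), Apoe changed sign (-0.155), and the remaining gene, Rlbp1, was called lower (log2 fold change -0.872, adjusted p = 0.0387, against -0.09 and 0.904 with all members). Slc1a3 was a gate gene, so genes that follow it are not independent of the rule.

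Against GABAergic nuclei, members were higher in Car3, Bnc2 and Trhde among other genes, and lower in 15 of 24 cadherins and 7 of 10 neuropeptide genes. Car3, a carbonic anhydrase, stood at 204 and 407 CPM in 5-month members and at 566 and 443 CPM in 2.5-month members, against 2.24 to 4.21 CPM in GABAergic nuclei (log2 fold change 7.0 ± 0.30, adjusted p = 5.4e-14). Bnc2, a zinc finger gene, averaged 893 ± 218 CPM in members and 16.2 ± 7.07 CPM in GABAergic nuclei. Trhde, the enzyme that degrades thyrotropin-releasing hormone, averaged 804 ± 226 CPM in members and 24.6 ± 2.42 CPM in GABAergic nuclei. Frem2, Slc16a14, Igsf11, Lamp5 and Gpc3 were higher with log2 fold changes of 6.16, 5.29, 4.90, 4.89 and 4.75. Col9a1, a collagen IX chain, was called higher (4.83, adjusted p = 6.58e-10) but not at 3 Slc17a8 UMIs (adjusted p = 0.112). Its pooled level was 9.93 CPM in members with a Tfap2 UMI, 902 CPM in members without one and 723 CPM in Müller nuclei.

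Tnc (tenascin C), Tac1 (the substance P precursor) and C1ql2 had no UMI in members and 979, 778 and 816 UMIs in GABAergic nuclei. They were at least 20.3-fold, 16.2-fold and 17.0-fold lower in members against a floor of 3 UMIs over the group. Robo1 averaged 24.5 ± 8.42 CPM in members and 3233 ± 576 CPM in GABAergic nuclei (log2 fold change -7.11 ± 0.61, adjusted p = 5.23e-09). Adarb2, an RNA editing family gene, averaged 35.3 ± 45.7 CPM in members and 1242 ± 270 CPM in GABAergic nuclei. Il1rapl2 had 3 UMIs in members and 4497 in GABAergic nuclei, a ratio of 93.4 (32.0 to 453). Cdh8, Syt6, Clmp, Gfra1 and Cntnap5b had 1 or 2 UMIs in members, with ratios of 72.7 (13 to 2880), 50.9 (9.10 to 2010), 44.7 (12.4 to 369), 44.4 (12.3 to 367) and 42.2 (11.7 to 349) in favour of GABAergic nuclei. Plcxd3 was lower by 5.02 on the log2 scale.

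Of 24 cadherins and protocadherins, 5 were higher than in GABAergic nuclei and 15 lower (4 and 15 at 3 Slc17a8 UMIs), with a median of -1.735. Of 10 neuropeptide and processing genes, 7 were lower and Penk, the enkephalin precursor, was higher. Penk stood at 18.6 and 67.8 CPM in 5-month members and at 92.6 and 7.27 CPM in 2.5-month members, against 0.749 to 4.21 CPM in GABAergic nuclei (log2 fold change 4.35 ± 0.74, adjusted p = 0.000125), so the lowest member library was nearest to the comparator. Npy, neuropeptide Y, ran from 9.29 to 14.5 CPM in members, against 24.6 to 61.7 CPM in GABAergic nuclei and 69.6 to 136 CPM in starburst nuclei. Vip had 1 UMI in members and 355 in GABAergic nuclei, a ratio of 22.1 (3.95 to 877). Cartpt was lower by 3.91 on the log2 scale. Of 28 potassium channel genes 15 were lower and 3 higher (14 and 3 at 3 Slc17a8 UMIs), and of 30 release machinery genes 11 were lower and 2 higher (11 and 1). Of 7 metabotropic glutamate receptors 5 were lower (4 at 3 Slc17a8 UMIs), among them Grm7 (log2 fold change -1.73 ± 0.17, adjusted p = 6.77e-08). Among 29 transcription factor genes 7 were higher and 8 lower (6 and 10 at 3 Slc17a8 UMIs). Neurod2 averaged 40.8 ± 19.2 CPM in members and 1.18 ± 1.01 CPM in GABAergic nuclei, and Meis2, a homeobox factor of many GABAergic amacrine cells, averaged 65.8 ± 15.2 CPM in members and 1543 ± 126 CPM in GABAergic nuclei.

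Against starburst nuclei, the cholinergic amacrine cells of motion direction circuits, members had few UMIs of the starburst factors Isl1 and Sox2. Isl1, a LIM homeobox factor of starburst cells, stood at 0 and 6.16 CPM in 5-month members and at 20.6 and 7.27 CPM in 2.5-month members, against 326 and 416 CPM at 5 months and 379 and 343 CPM at 2.5 months in starburst nuclei (log2 fold change -5.66 ± 0.34, adjusted p = 7.82e-12). Sox2 had 2 UMIs in members and 151 in starburst nuclei, a ratio of 22.2 (6.04 to 185). Of the 2 tested genes in the list of starburst markers, Sox2 was called lower and Megf10 was not called. Megf10 was called higher in members than in glycinergic and GABAergic nuclei, but not against glycinergic nuclei at 3 Slc17a8 UMIs. The summed level of the 5 listed genes was 2.48 CPM in members with a Tfap2 UMI. It was 284 CPM in members without one and 411 CPM in Müller nuclei. Megf11, of the family that spaces starburst cells in a mosaic, averaged 14.6 ± 23.5 CPM in members and 1390 ± 278 CPM in starburst nuclei. Hmga2 and Mmp17 had no UMI in members, which is at least 39.7-fold and 19.9-fold lower against the floor of 3 UMIs. Pde11a and Pappa2 had 1 UMI in members, against 1527 and 1171 in starburst nuclei, ratios of 449 (80.5 to 17800) and 345 (61.7 to 13600). Prima1, which anchors acetylcholinesterase in the membrane, and Gabrd, the delta subunit of extrasynaptic GABA-A receptors, also had 1 UMI in members, against 439 and 401 in starburst nuclei. Cntnap5b, Gfra1 and Eya2 had ratios of 93.7 (25.8 to 776), 68.4 (18.8 to 567) and 66.9 (18.4 to 554) in favour of starburst nuclei.

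Car3, Col24a1, Bmp5 and Bnc2 were among the genes most above starburst nuclei. Car3 had 204 UMIs in members and 1 in starburst nuclei, a ratio of 693 (123 to 27500). Col24a1 and Bmp5 had 95 and 55 UMIs in members and 1 each in starburst nuclei, ratios of 323 (56.6 to 12900) and 187 (32.2 to 7520). Bnc2, Cobl (an actin nucleator) and Frem2 had log2 fold changes of 6.34, 6.11 and 5.94. Col9a1 had 6.01, and 3.07 at 3 Slc17a8 UMIs (adjusted p = 0.0390); as given above, its level was 9.93 CPM in members with a Tfap2 UMI and 902 CPM in members without one. Shisa9, an auxiliary subunit of AMPA receptors, was higher by 5.41, and its pooled level was 74.5 CPM in members with a Tfap2 UMI, 696 CPM in members without one and 840 CPM in Müller nuclei. Of 31 guidance genes 12 were higher and 9 lower (9 and 10 at 3 Slc17a8 UMIs, median 0.811), of 11 AMPA, kainate and delta receptor genes 5 were higher and 1 lower (4 and 1 at 3 Slc17a8 UMIs), and of 7 metabotropic receptors 1 was higher and 4 lower.

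**Figure D3:**
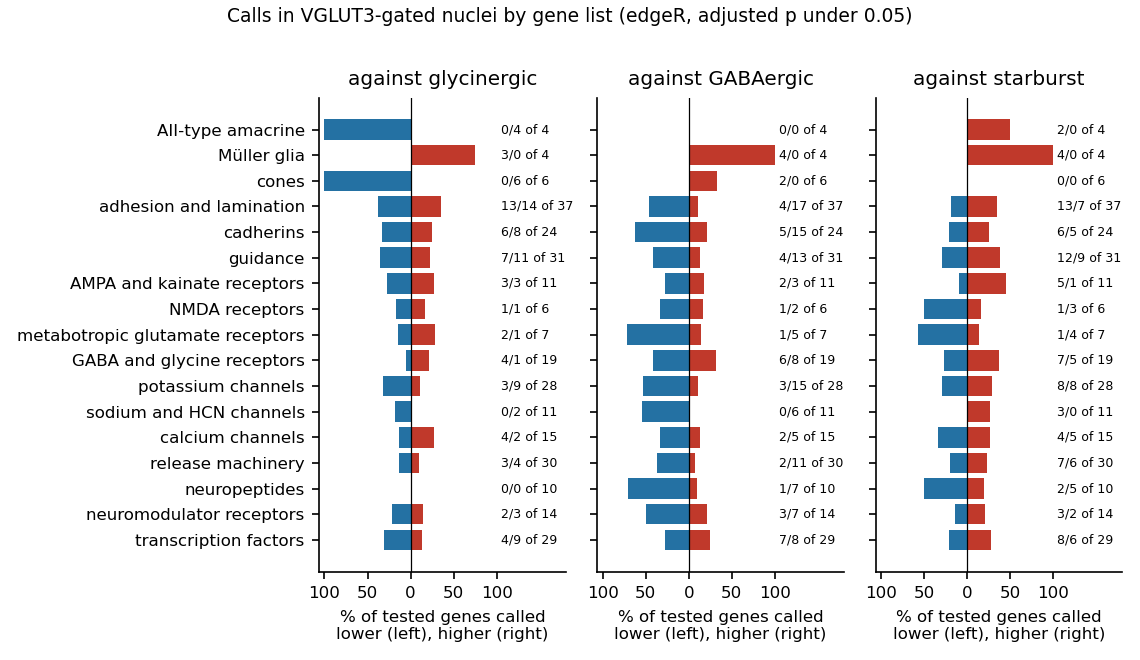
Share of the tested genes of 17 lists called higher (right, red) or lower (left, blue) in VGLUT3-gated nuclei than in glycinergic, GABAergic and starburst nuclei, with the counts higher/lower of tested beside each bar. All 4 AII genes are lower than in glycinergic nuclei, 15 of 24 cadherins and 7 of 10 neuropeptide genes are lower than in GABAergic nuclei, and 3, 4 and 4 of the 4 Müller genes are higher than in glycinergic, GABAergic and starburst nuclei, against 0, 2 and 2 at 3 Slc17a8 UMIs.

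Age was compared in the members' sums alone, 5-month over 2.5-month, with 2 libraries an age. Of 2721 genes tested, 4 were higher at 5 months (0.147%) and 0 were lower (0%) by edgeR; at an unadjusted p under 0.05 the counts were 125 and 86, and DESeq2 called 8 higher and 0 lower. Cmss1, a ribosomal small subunit homologue gene, stood at 2174 and 2531 CPM in 5-month members and at 463 and 589 CPM in 2.5-month members (log2 fold change 2.22 ± 0.26, adjusted p = 0.00392, and 0.0171 at 3 Slc17a8 UMIs). Glycinergic nuclei had 2222 and 3127 CPM at 5 months and 420 and 694 CPM at 2.5 months, and the age difference in members minus that in glycinergic nuclei was -0.14 on the log2 scale (edgeR adjusted p = 0.981). It coincides with the change of software version, whose part in it cannot be told apart from age.

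Arr3, the cone arrestin, stood at 632 and 376 CPM in 5-month members and at 20.6 and 0 CPM in 2.5-month members (log2 fold change 5.75 ± 0.64, adjusted p = 0.00392). Of its 131 UMIs, 68 came from a single nucleus of one 5-month library and 53 from a single nucleus of the other, and Arr3 was not tested at 3 Slc17a8 UMIs, where it fell below the count filter. Zfp804b stood at 641 and 480 CPM in 5-month members and at 124 and 43.6 CPM in 2.5-month members (log2 fold change 2.87 ± 0.41, adjusted p = 0.0164, and 0.181 at 3 Slc17a8 UMIs). It had a UMI in 10 of 86 members with a Tfap2 UMI, in 18 of 31 without one and in 74.5% of Müller nuclei. Members without a Tfap2 UMI numbered 11 and 13 at 5 months and 5 and 2 at 2.5 months, and the summed Müller level of members was 1998 and 1959 CPM at 5 months and 1523 and 836 CPM at 2.5 months; the part of that difference in the age calls was not tested. The fourth gene is an unnamed gene model. No gene of the receptor, channel, adhesion, guidance, release or neuropeptide lists was called by age. Many of their genes fell below the count filter. Tested were 3 of 19 neuropeptide, 1 of 24 neuromodulator receptor, 12 of 32 guidance, 18 of 32 release and 22 of 39 adhesion genes. Over all genes tested 0.147% were called, and at that share such lists would be likely to hold no call.

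Whether the age difference in members differed from that in glycinergic nuclei was tested over 8360 genes. The difference was higher in members for 9 genes (0.108%) and lower for 3 (0.0359%). Ralyl, an RNA-binding protein gene, stood at 1068 and 985 CPM in 5-month members and at 1976 and 1941 CPM in 2.5-month members, against 661 and 590 CPM at 5 months and 561 and 477 CPM at 2.5 months in glycinergic nuclei. The age difference in members minus that in glycinergic nuclei was -1.25 ± 0.28 on the log2 scale (adjusted p = 0.0422, and 0.415 at 3 Slc17a8 UMIs). Fgf14, a partner of voltage-gated sodium channels, stood at 55.8 and 166 CPM in 5-month members and at 319 and 334 CPM in 2.5-month members, against 552 and 600 CPM at 5 months and 481 and 391 CPM at 2.5 months in glycinergic nuclei. Its difference of differences was -1.96 ± 0.40 (adjusted p = 0.016, and 0.0430 at 3 Slc17a8 UMIs), and leaving out 1 library moved the adjusted p as high as 0.198. All 9 higher genes, among them Zfp804b, Arhgap6, Wdr17, Shisa9 and Sned1, had higher pooled levels in members without a Tfap2 UMI than in members with one, and none of the 9 was called at 3 Slc17a8 UMIs.

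The share of VGLUT3-gated nuclei among the 4 gated amacrine classes was 3.50% (95% Clopper-Pearson interval 2.37 to 4.95) and 3.90% (2.81 to 5.25) at 5 months, and 6.27% (4.01 to 9.26) and 2.63% (1.68 to 3.92) at 2.5 months. The 5-month values lay between the 2.5-month values. Nuclei with a Tfap2 UMI that failed the rule on Slc1a3 alone were unevenly spread over the libraries. They numbered 8 and 15 at 5 months and 14 in the second 2.5-month library, with none in the first. Both 2.5-month libraries held 23 members, out of 367 gated amacrine nuclei in the first and 874 in the second. The first also had the lowest median UMIs per barcode, 1812, against 2900 in the second and 2744 and 2785 at 5 months. The part of any of these differences in the spread of the shares was not tested. The means were 3.70% ± 0.283 at 5 months and 4.45% ± 2.57 at 2.5 months (SD, n = 2 each), a difference of -0.752 percentage points (exact permutation test over 4 libraries, 2-sided, p = 1; the smallest p this design allows is 0.3333). Without the first 2.5-month library the difference was 1.06 percentage points, so its direction rested on that library. As a share of all nuclei the members were 0.398% and 0.412% at 5 months and 0.311% and 0.310% at 2.5 months (exact permutation p = 0.3333).

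**Figure D4:**
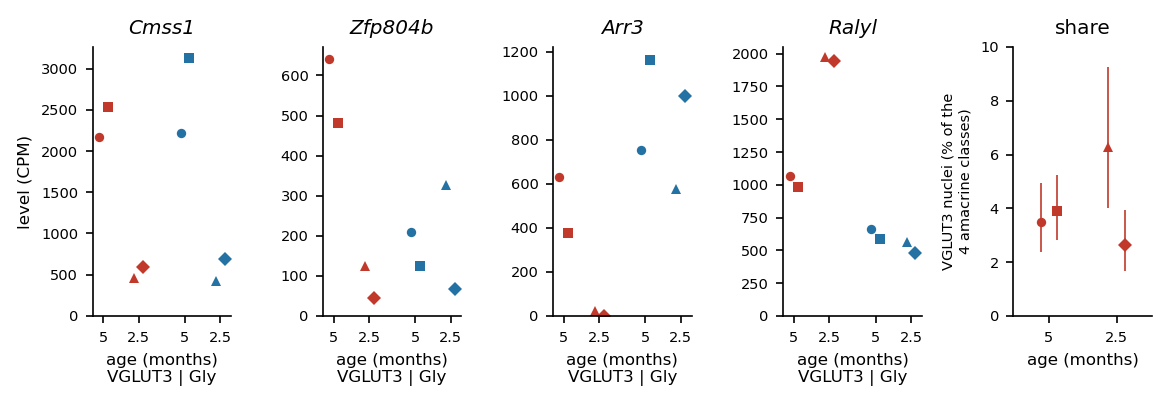
Levels in CPM of Cmss1, Zfp804b, Arr3 and Ralyl in VGLUT3-gated (red) and glycinergic (blue) nuclei, 5-month libraries left of 2.5-month libraries, 1 point per library, and at right the share of VGLUT3-gated nuclei among the 4 amacrine classes with 95% Clopper-Pearson intervals. Cmss1 is higher at 5 months in both classes, both 5-month Ralyl points of VGLUT3-gated nuclei (1068 and 985 CPM) lie below both 2.5-month points (1976 and 1941 CPM), and the 5-month shares lie between the 2.5-month shares.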

How the data were processed

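The files hold UMI counts per gene and nuclear barcode that the authors made with Cell Ranger 4.0.0 (5 months) and 7.1.0 (2.5 months) on mm10, per the file headers, and deposited without normalization. The members and all gene lists were chosen with earlier results of these data known. Nuclei were gated on raw counts as stated in the report, and doublets were not removed; leaving out the top 6% of doublet scores was an alternative. UMIs were summed per library and class, 16 sums in all, and tested with edgeR 4.0.16 (R 4.3.3; TMM, filterByExpr, quasi-likelihood, library block in class comparisons, Benjamini-Hochberg adjustment over all genes tested). Every adjusted p in the report is from edgeR. DESeq2 1.42.0 was an alternative, beside other scaling, count filters, gates, and leaving out each library. On simulated counts the class test recovered 51.5% of 97 genes changed 2-fold and 95.9% of 98 changed 4-fold, with 9511 genes tested. The age test recovered 44.4% of 99 and 99% of 100, with 2739 genes tested. The interaction test recovered 7.53% of 93 and 48% of 98, with 8096 genes tested. Only genes above a limit on the mean count were changed. Every simulation used the common dispersion of the class fit (0.01146) and gave the classes the same profile otherwise. Recovery for genes with few UMIs, or with UMIs held by single nuclei, was not simulated. Named genes were up to 12 with the highest and 12 with the lowest fold change per class comparison among called genes with the same direction in 4 libraries and at least 100 CPM in the higher class; genes of the fixed lists could be named too, and gene models were counted only. A few genes that the rule covers are not reported here. Positions are from GENCODE on GRCm38 (30934 of 31053 identifiers matched). The donor numbers 1 and 2 are given at both ages, but no label pairs them.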

Additional observations from a re-analysis of the deposited data

Results flagged for a closer look

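The age difference (5 months over 2.5 months) in VGLUT3-gated nuclei minus that in glycinergic nuclei passed edgeR's test for 12 genes, of which 11 are given here with their log2 values. It was higher for Arr3 (5.544), Cngb3 (3.742), Arhgap6 (3.507), Zfp804b (2.909), Pcdh15 (2.447), Sned1 (2.166), Shisa9 (1.789) and Wdr17 (1.703). It was lower for Hs6st3 (-3.534), Fgf14 (-1.958) and Ralyl (-1.247). Single nuclei held 44 of 78 and 30 of 51 Pcdh15 UMIs of the 5-month libraries and all 77 Hs6st3 UMIs of the second 2.5-month library. Wdr17 had a pooled level of 77.0 CPM in members with a Tfap2 UMI, 1197 CPM in members without one and 1414 CPM in Müller nuclei; the part of those nuclei in its age difference was not tested.

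In 14 of 108 genes checked, 1 of the 4 libraries stood apart from the others. The check marks about 1 in 20 groups by chance only where values are normally distributed. A gene with UMIs in only 1 library is always marked. That was so for Il1rapl2, Pcsk6, Drd2, Cdh8, Syt6, Vip, Pde11a, Pappa2, Prima1 and Gabrd, so the 14 cannot be set against that rate. The second 5-month library was apart for Nrg1 (603.6 CPM), Pcsk6 (30.79 CPM), Drd2 (12.32 CPM), Syt6 (6.159 CPM) and Gabrd (6.159 CPM). The first 5-month library was apart for Il1rapl2 (27.87 CPM), Vip (9.291 CPM), Pde11a (9.291 CPM) and Prima1 (9.291 CPM). The second 2.5-month library was apart for Glra3 (654.2 CPM), Hs6st3 (559.7 CPM), Kcnb2 (327.1 CPM) and Cdh8 (7.269 CPM), and the first for Pappa2 (10.29 CPM). Syt6, Gabrd, Vip, Pde11a, Prima1, Cdh8 and Pappa2 rest on 1 UMI each, and Drd2 on 2.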

How the results depend on the processing

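The counts of genes called between VGLUT3-gated nuclei and each of the 3 amacrine classes stayed within 1.5 times under every alternative run. Which genes were called changed more, and the overlap was lowest without the second 5-month library. There, 768 of the 1125 calls against glycinergic nuclei were kept. Against GABAergic nuclei 1126 of 1583 were kept, and against starburst nuclei 1274 of 1716. Of 1840 values recomputed for 143 gene results, 1745 kept their direction and side of the threshold, 90 fell below it and 5 changed sign. The age comparison, 4 genes as reported, gave 8 with DESeq2, 46 with no filter on low counts, 1 at 3 Slc17a8 UMIs, 7 without the 25% of nuclei with most rod RNA, and 34 to 67 with 1 library left out, where the lone library is assumed to vary like the others. With the donor number as a block it gave 3; the deviations of same-numbered donors correlated at 0.159, and the labels do not say that the numbers pair the samples. The interaction, 12 genes as reported, gave 1 with DESeq2, 36 with no filter, 1 at 3 Slc17a8 UMIs, 31 without high doublet scores, 4 with nuclei of at least 2000 UMIs, 0 without those with most rod RNA, 3 without cone RNA (chosen after seeing the data), and 19 to 30 with 1 library left out. The age difference in share, -0.7525 percentage points, was 0.0942 as a share of all nuclei and ran from -2.57 to 1.065 with 1 library left out. At 3 Slc17a8 UMIs the log2 value changed sign for Slc6a5 (0.096) and Apoe (-0.155) against glycinergic nuclei and for Sned1 (-0.290) and Hs6st3 (0.090) in the interaction; Hs6st3 ran from -4.931 to 0.775 with 1 library left out. The cause of these changes was not tested. With 23 to 41 members a library, genes with few UMIs could not be resolved.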
